A study of Mus musculus with 52 samples.

Results

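The expression of 42 genes of the cell division cycle was followed through all 13 groups of a study of mouse conventional type 1 dendritic cells (cDC1), the dendritic cells that cross-present antigen to CD8 T cells. The genes were chosen by name for their known roles, 18 for DNA synthesis in S phase and 24 for G2 phase and mitosis, and were matched by exact symbol. All 42 were found among the 20995 genes with at least 1 count. RNA was measured in bulk by counting 3′ ends of polyadenylated transcripts with unique molecular identifiers (UMIs), so that each molecule counts once whatever the length of its transcript. Levels are given as CPM, counts scaled to a common library total, on one TMM scale over all 52 libraries, where TMM adjusts the totals for differences in RNA composition.

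Per the labels, the cells came from C57BL/6 mouse bone marrow kept for 14 days with FLT3 ligand and GM-CSF, and CD103+ cells were then sorted. Each group had 4 libraries, lettered A to D. Every group shared this culture and sort, and the labels give no engineered allele for the dendritic cells. At 4 h the groups were untreated cells, cells given prostaglandin E2 (PGE2) at 100 ng/ml, cells given conditioned medium (CM) of control BRAFV600E melanoma cells, and cells given CM of Ptgs1/Ptgs2-/- BRAFV600E melanoma cells, which lack both cyclooxygenases needed to make prostaglandins. In 5 more groups at 4 h, PGE2 followed 30 min with an antagonist at 5 uM of the PGE2 receptor EP1 (SC-19220), EP2 (PF-04418948), EP3 (L-826,266), EP4 (L161,982) or of EP2 and EP4 together. For that last group the title names EP2 and EP4 but the treatment entry lists SC-19220 with L161,982, which are the compounds given elsewhere for EP1 and EP4. The group is called EP2 and EP4 antagonists here after its title, and which pair was used is not settled by the labels. The remaining 4 groups are labelled 24 h. They were left untreated or given PGE2 at the same dose, each with or without poly I:C at 10 ug/ml during the final 4 h, a double-stranded RNA mimic that activates TLR3.

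A cell copies its genome once in S phase and divides the copies in mitosis, and the genes for these steps are switched on in waves. S phase genes include those for making deoxynucleotides and for the replication fork, and many are driven by E2F transcription factors as cells leave G1. Mitotic genes include cyclins, kinases, kinetochore and spindle proteins, and they peak later, under complexes that read the cell cycle homology region (CHR) and the CCAAT box of their promoters. Because these RNAs are made mainly in cycling cells, their level in a bulk sample depends both on how many cells cycle and on how much each makes. Fewer such cells and less RNA per cell cannot be told apart in these samples. Dendritic cells grown from bone marrow arise from dividing precursors, and their differentiated forms divide less.

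The promoters of both sets are shown first, since the letters around their starts differ. RefSeq windows of 300 bases (build GRCm38.p6, 250 before and 50 after the annotated start) were matched for 36 of the 42 genes, 16 S phase and 20 mitotic. Both strands were searched for the E2F words TTTCCCGC, TTTGGCGC, TTTCGCGC and TTTGCCGC, the CHR words TTTGAA and TTCGAA, the CCAAT box as CCAAT, and the cAMP response element (CRE) TGACGTCA. Matches that share bases were each counted, and a gene with several windows was counted if any of them held a match. An E2F word was present for 8 of 16 S phase genes (50%) and 1 of 20 mitotic genes (5%), Cdk1, against 2.6% of the 27025 genes in the promoter table. A CHR word was present for 3 of 16 S phase genes (18.8%) and 15 of 20 mitotic genes (75%), against 21.7%. The CCAAT box was present for 11 of 16 and 18 of 20, against 41.1%, and a CHR word together with a CCAAT box for 2 of 16 and 15 of 20, against 8.61%. The CRE, read by factors that cAMP activates downstream of EP2 and EP4, was present for 2 S phase genes, Mcm5 and Dtl, and 1 mitotic gene, Cenpe, against 2.03%. A match is a run of letters and not a shown binding site. Among the S phase genes that fell with PGE2 at 24 h (below), Mcm5, Mcm6, Mcm7, Dtl and Pclaf held an E2F word. Rrm1, Rrm2, Pcna, Dut, Fen1, Tyms and Tk1 fell as well and held none. Whether any word bears on the changes was not tested.

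The following stretches run from 150 bases before to 30 bases after the start, 5′ to 3′ on the gene's strand, with every match of these words in capitals. They are examples, of 3 S phase genes that hold an E2F word and 3 mitotic genes that hold a CHR word: Mcm6 (chr1:128359676-128359855, minus strand), Pclaf (chr9:65890173-65890352, plus strand), Dtl (chr1:191575515-191575694, minus strand), Top2a (chr11:99024160-99024339, minus strand), Ccnb2 (chr9:70421525-70421704, minus strand) and Cenpa (chr5:30666736-30666915, plus strand).
Mcm6: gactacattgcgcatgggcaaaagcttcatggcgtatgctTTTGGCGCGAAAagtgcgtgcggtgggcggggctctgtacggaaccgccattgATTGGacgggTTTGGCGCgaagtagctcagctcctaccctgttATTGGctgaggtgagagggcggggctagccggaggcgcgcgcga
Pclaf: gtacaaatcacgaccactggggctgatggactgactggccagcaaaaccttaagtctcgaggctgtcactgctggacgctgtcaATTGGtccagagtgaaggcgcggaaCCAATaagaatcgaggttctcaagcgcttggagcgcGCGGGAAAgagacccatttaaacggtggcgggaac
Dtl: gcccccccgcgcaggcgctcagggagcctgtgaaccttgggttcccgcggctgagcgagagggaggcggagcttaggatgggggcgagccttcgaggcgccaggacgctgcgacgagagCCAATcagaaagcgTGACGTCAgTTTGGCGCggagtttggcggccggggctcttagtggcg
Top2a: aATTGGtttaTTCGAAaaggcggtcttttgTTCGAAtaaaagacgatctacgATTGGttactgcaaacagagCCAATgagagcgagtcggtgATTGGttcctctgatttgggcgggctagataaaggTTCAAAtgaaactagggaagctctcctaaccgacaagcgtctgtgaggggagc
Ccnb2: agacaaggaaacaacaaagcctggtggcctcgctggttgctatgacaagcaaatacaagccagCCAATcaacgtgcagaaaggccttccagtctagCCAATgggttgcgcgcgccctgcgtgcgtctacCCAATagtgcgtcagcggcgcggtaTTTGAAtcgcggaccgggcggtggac
Cenpa: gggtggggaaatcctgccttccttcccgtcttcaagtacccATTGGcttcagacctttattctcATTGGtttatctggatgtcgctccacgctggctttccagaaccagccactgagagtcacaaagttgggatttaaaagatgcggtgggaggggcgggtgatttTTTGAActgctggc
In Mcm6, which encodes a subunit of the replicative helicase, 3 E2F words stand beside 2 CCAAT boxes, and the upstream pair of E2F words shares bases. Pclaf, whose protein binds the sliding clamp PCNA, has the E2F word GCGGGAAA (TTTCCCGC on the other strand) across the start. Dtl, which encodes the substrate receptor of a ubiquitin ligase that acts on chromatin-bound PCNA, has a CRE directly before its E2F word. Top2a, the topoisomerase that untangles sister chromatids, has 3 CHR words and 4 CCAAT boxes in this stretch, while Ccnb2 (cyclin B2) has 3 CCAAT boxes upstream of a CHR word at the start. Cenpa, the histone H3 variant that marks centromeres, has 2 CCAAT boxes and a CHR word, and holds none of the E2F or CRE words.

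**Figure D1:**
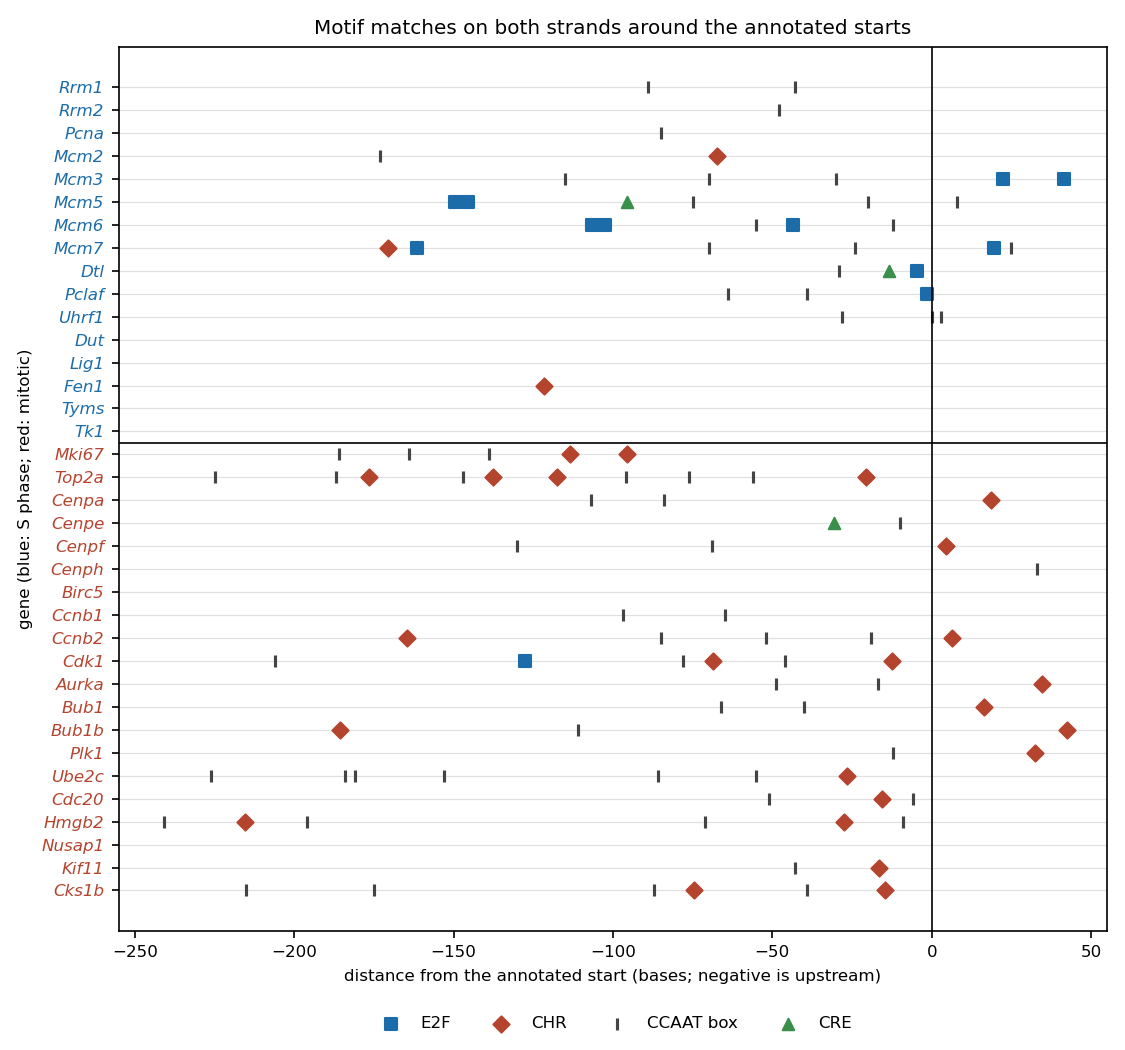
Positions of the E2F, CHR, CCAAT and CRE words, on either strand, in the first promoter window of each of the 36 matched genes, by distance in bases from the annotated start (0). E2F words (squares) lie mostly among the 16 S phase genes and CHR words (diamonds) mostly among the 20 mitotic genes.

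Depth and cell identity set the limits for all comparisons. The smallest libraries held 42666 counts (library A of the EP4 antagonist), 54107 (untreated library A at 4 h) and 110698, the largest 438491 and the median one 295484.5. A count of 0 allows up to 3 counts, which is 10.2 CPM at the median depth before TMM scaling and covers counting error only. On the TMM scale 3 counts can stand for more in the poly I:C libraries, as for 17.4 CPM in library A of poly I:C. All 10 cDC1 markers were present in every group, while markers of lymphocytes, granulocytes, erythroid cells and melanoma cells were at or near 0, with at most 20.1 CPM summed over a list in any library. Nothing in the labels says that lettered libraries stem from separate mice or cultures, so each p-value measures only the spread among these libraries, possibly a technical one. Some members share exon bases with a gene on the opposite strand (Mcm7, Gins2, Lig1, Fen1, Tk1, Ccna2, Plk1, Ube2c, Cdc20, Nusap1), whose reads cannot be told apart since the strand setting of the counting is not given. Others share them with a small RNA gene on the same strand (Mcm7, Top2a, Stmn1) or have a near-identical copy in the table (Pcna, Ccnb1, Cks1b), which could have taken or added reads.

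The summed levels of both sets differed less over the groups at 4 h than over those at 24 h. In untreated cells at 4 h the 18 S phase genes summed to 1541 ± 48.7 CPM (SD, n = 4) and the 24 mitotic genes to 3310 ± 177 CPM. With PGE2 at 4 h the sums were 1574 ± 98.3 and 3374 ± 176 CPM, so the groups overlapped. The lowest mean mitotic sum at 4 h was 2918 CPM, with the EP2 and EP4 antagonists. The ratio of the S phase to the mitotic sum at 4 h was 0.518 to 0.551 with control CM. That lay above the untreated range of 0.421 to 0.505 and the PGE2 range of 0.420 to 0.489. The mean ratio was 0.534 with control CM and 0.547 with Ptgs1/Ptgs2-/- CM (0.457 to 0.596). With the EP2 and EP4 antagonists it was 0.536 (0.471 to 0.567), so a higher mean was not particular to control CM. Over all 36 libraries at 4 h the S phase sum ran from 1007 to 1810 CPM and the mitotic sum from 2518 to 3671 CPM. The low end of both belonged to the shallowest library, EP4 antagonist A, whose S phase sum rests on 50 counts; without the libraries under 60000 counts the S phase sums began at 1402 CPM.

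In untreated cells at 24 h the S phase sum was 1846 ± 276 CPM (1598 to 2195) and the mitotic sum 2549 ± 160 CPM (2337 to 2719). With PGE2 at 24 h the S phase sum was 715 ± 97.3 CPM (585 to 813) and the mitotic sum 1853 ± 82.6 CPM (1766 to 1962), and for neither set did the groups overlap. The ratio of the S phase to the mitotic sum was 0.722 in untreated cells (0.651 to 0.807) and 0.386 with PGE2 (0.321 to 0.429), so the S phase sum was lower relative to the mitotic sum in all 4 PGE2 libraries than in any untreated one. With poly I:C the sums were 435 ± 81.1 and 1179 ± 105 CPM, and with PGE2 and poly I:C 259 ± 61.1 and 893 ± 115 CPM. These sums describe the libraries and were not tested.

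**Figure D2:**
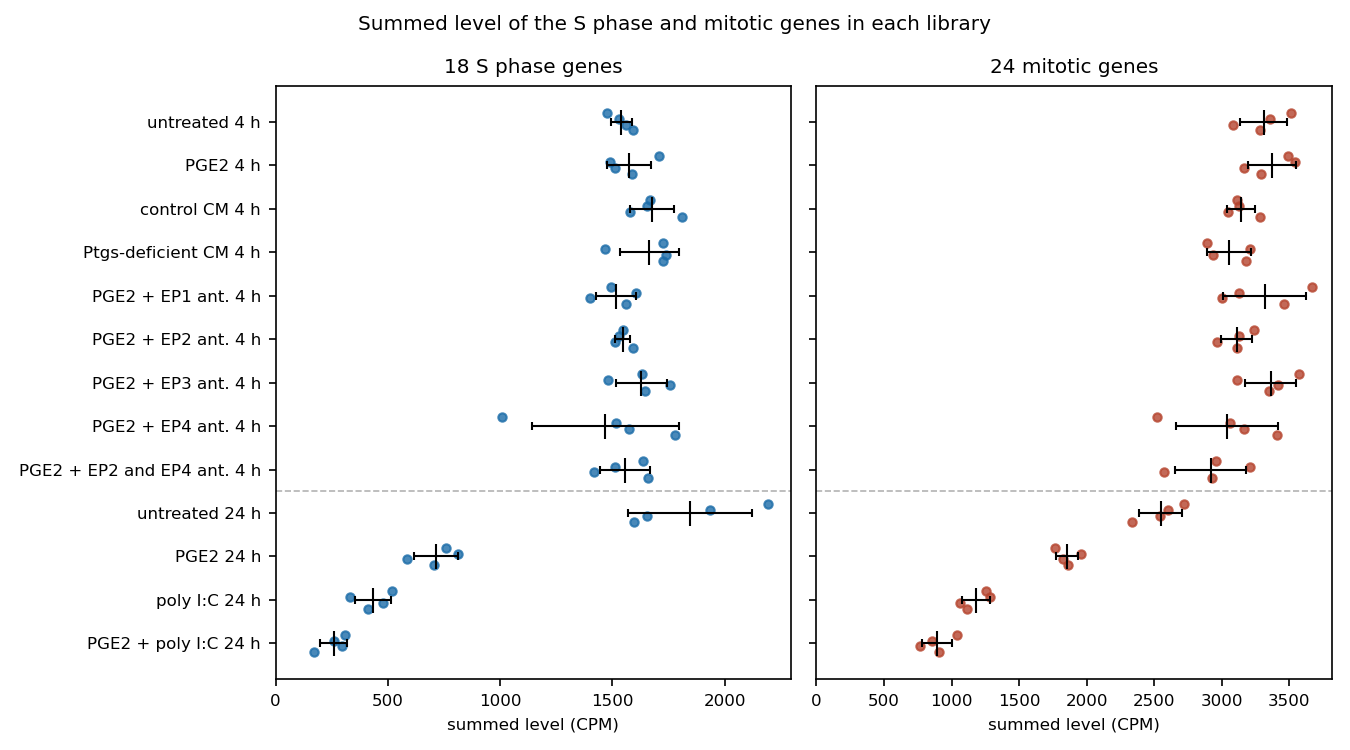
Summed level (CPM) of the 18 S phase genes (left) and the 24 mitotic genes (right) in each library (points), with the group mean and SD (black), for the 9 groups at 4 h above the dashed line and the 4 at 24 h below it. Levels at 4 h lie in one band in both panels, and the 3 treated groups at 24 h lie below the untreated group.

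After 4 h of PGE2, the S phase genes showed no change that passed the test and the mitotic set showed 2, both higher: Cenpa and Nusap1. The test was edgeR's quasi-likelihood test with Benjamini-Hochberg adjustment over all genes tested (adjusted p at most 0.05), which is behind every adjusted p and log2 fold change ± standard error (SE) given here, with 4 libraries a group. Of 5754 genes tested at 4 h, 8.57% passed in this comparison, against 2 of 41 members tested (Bub1 had too few counts). The 18 S phase genes had log2 fold changes between −0.63 and 0.44 (median 0.06), and the 23 mitotic genes between −0.49 and 0.93 (median −0.13), with a median of −0.01 over all genes.

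Cenpa stood at 407, 416, 334 and 373 CPM in untreated libraries A to D and at 542, 722, 687 and 739 CPM with PGE2. Every PGE2 library was above every untreated one, and Cenpa rose by 0.83 ± 0.14 on the log2 scale (adjusted p = 2.34e-06), a call kept under every setting tried. Nusap1, which encodes a microtubule-binding protein of the spindle, stood at 45.3, 26.8, 62.8 and 47.6 CPM without and at 127, 107, 69.3 and 55.5 CPM with PGE2. The groups overlapped for Nusap1, which rose by 0.93 ± 0.29 (adjusted p = 0.026), a call lost by library totals, without the filter on low counts, and without untreated library B or D or PGE2 library A or B (adjusted p up to 0.19). The most abundant members did not pass: Top2a stood at 799, 647, 663 and 550 CPM without and at 575, 707, 511 and 572 CPM with PGE2, and Rrm2, a subunit of the ribonucleotide reductase that makes deoxynucleotides, at 362, 325, 314 and 383 CPM without and 448, 302, 332 and 400 CPM with it.

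Cenpa was also the one member that passed between the conditioned media. It stood at 480, 562, 613 and 655 CPM with control CM and at 371, 454, 228 and 430 CPM with Ptgs1/Ptgs2-/- CM, and all 4 control CM libraries were above all 4 of the latter. It rose with control CM against untreated cells by 0.62 ± 0.14 (adjusted p = 0.000963) and against Ptgs1/Ptgs2-/- CM by 0.63 ± 0.14 (adjusted p = 0.000749). Both of these comparisons share the control CM libraries. With Ptgs1/Ptgs2-/- CM against untreated cells its log2 fold change was −0.02 ± 0.15 (adjusted p = 0.995).

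With control CM 2 mitotic genes were lower than in untreated cells. Mki67, which encodes the Ki-67 protein that coats mitotic chromosomes, stood at 483, 308, 380 and 269 CPM in untreated cells and 275, 230, 185 and 229 CPM with control CM, and fell by 0.56 ± 0.17 (adjusted p = 0.0233). Cdc20, an activator of the anaphase-promoting complex, averaged 17.5 against 53.8 CPM, and fell by 1.39 ± 0.45 (adjusted p = 0.0353). Neither passed without untreated library A, the shallow one, without control CM library B or D, or without the filter, with adjusted p up to 0.166 for Mki67 and 0.273 for Cdc20. The call for Cdc20 was also lost with DESeq2. Among all genes 7.56% passed for control CM against untreated cells, where 3 of 41 members did, and 3.95% for control CM against Ptgs1/Ptgs2-/- CM, where Cenpa alone of the members did. For Ptgs1/Ptgs2-/- CM against untreated cells 0.0869% of genes passed and no member did by edgeR or by DESeq2, with 1 member at an unadjusted p under 0.05.

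Among the antagonists, given before PGE2 at one dose and compared with PGE2 alone, only the EP2 and EP4 combination had members past the threshold. Cenpa stood at 362, 496, 399 and 477 CPM with both antagonists, below all 4 PGE2 libraries, and fell by 0.64 ± 0.13 (adjusted p = 0.00017). Nusap1 stood at 50.8, 51.9, 43.1 and 49.8 CPM and fell by 0.86 ± 0.27 (adjusted p = 0.0224), a call lost without the filter, without PGE2 library A or B or without antagonist library C (adjusted p up to 0.159). In this comparison 9.52% of all genes passed and 2 of 41 members. The rises of both genes with PGE2 and these falls share the PGE2 libraries.

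With a single antagonist Cenpa had log2 fold changes against PGE2 of 0.04 ± 0.13 for EP1 (adjusted p = 0.996), −0.22 ± 0.13 for EP2 (adjusted p = 0.642), 0.20 ± 0.13 for EP3 (adjusted p = 0.71) and −0.14 ± 0.14 for EP4 (adjusted p = 0.971). Its mean levels were 691, 578, 777 and 591 CPM in that order, against 672 CPM with PGE2 alone and 433 CPM with both antagonists. No member passed for EP1, EP2, EP3 or EP4 alone by edgeR or by DESeq2. The members at an unadjusted p under 0.05 numbered 2, 1, 1 and 2, and the shares of all genes that passed were 0%, 0.417%, 0.0695% and 0.0348%. The EP4 group holds the shallowest library, and a p that misses the threshold does not show that a single antagonist left Cenpa as it was.

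After 24 h of PGE2 most of the S phase genes and a smaller share of the mitotic genes were lower than in untreated cells. Of 37 members tested, 20 fell and none rose, namely 12 of 17 S phase genes and 8 of 20 mitotic genes, where 7.97% of 5273 genes passed in either direction and 3.22% were lower. The median log2 fold change was −1.35 for the S phase genes and −0.59 for the mitotic genes, against 0.03 over all genes. All 17 S phase genes were below 0, between −1.88 and −0.71, while the mitotic genes ran from −1.89 to 0.61 with 14 of 20 below 0.

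The filter on low counts bears on these figures, because 19 of the 37 members were tested only owing to their counts in untreated cells, the group in which they were high. Without any filter, all 42 members could be tested among 17409 genes, and 11 of 18 S phase and 7 of 24 mitotic genes were lower, with medians of −1.41 and −0.63 against 0 over all genes. All 18 S phase genes were then below 0, and 16 of 24 mitotic genes. The 7.97% and 3.22% of all genes given above belong to the filtered fit of 5273 genes, not to the fit without the filter. The 18 members whose counts passed without the untreated libraries gave 5 of 5 S phase genes lower (Rrm2, Pcna, Mcm6, Pclaf, Dut) and 5 of 13 mitotic genes (Mki67, Top2a, Birc5, Ccna2, Hmgb2). That last count was added after the values were seen.

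Genes for the supply of deoxynucleotides were lower with PGE2 at 24 h. Rrm2 stood at 465, 347, 240 and 223 CPM in untreated libraries A to D and at 99.8, 153, 64.3 and 111 CPM with PGE2. The groups did not overlap, and Rrm2 fell by 1.54 ± 0.20 (adjusted p = 5.93e-10). Rrm1, the other subunit of the same enzyme, stood at 132, 93.0, 127 and 68.9 CPM without and 63.8, 22.2, 42.9 and 29.0 CPM with PGE2, and fell by 1.35 ± 0.30 (adjusted p = 0.000434). Dut, the enzyme that removes dUTP, stood at 314, 242, 217 and 223 CPM without and 155, 108, 132 and 101 CPM with PGE2, and fell by 0.95 ± 0.19 (adjusted p = 4.43e-05). For both genes every PGE2 library was below every untreated one. Tk1, the thymidine kinase of the salvage route, stood at 75.2, 84.5, 73.3 and 62.4 CPM without and 19.4, 41.6, 9.19 and 24.1 CPM with PGE2 and fell by 1.59 ± 0.36 (adjusted p = 0.000816), and Tyms, thymidylate synthase, fell by 1.64 ± 0.34 (adjusted p = 0.000156).

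Of the 6 Mcm helicase genes 3 fell. Mcm6 stood at 188, 183, 147 and 112 CPM without and 49.9, 52.7, 52.1 and 43.4 CPM with PGE2, and fell by 1.62 ± 0.25 (adjusted p = 5.31e-08). Among the other helicase subunits Mcm5 and Mcm7 fell by 1.06 ± 0.34 (adjusted p = 0.0301) and 1.16 ± 0.37 (adjusted p = 0.033), while Mcm2, Mcm3 and Mcm4 had log2 fold changes of −1.21, −0.92 and −0.71 with adjusted p of 0.0694, 0.0703 and 0.194. Calls for Mcm5 and Mcm7 were lost with DESeq2 and without the filter. The clamp gene Pcna stood at 113, 116, 116 and 65.6 CPM without and 44.4, 41.6, 36.8 and 24.1 CPM with PGE2, with no overlap, and fell by 1.40 ± 0.28 (adjusted p = 9.36e-05).

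Pclaf, Fen1 and Dtl fell as well. Pclaf stood at 156, 169, 169 and 128 CPM without and 72.1, 47.2, 24.5 and 24.1 CPM with PGE2, and fell by 1.78 ± 0.26 (adjusted p = 1.57e-08). Fen1, the flap endonuclease that trims Okazaki fragments, fell by 1.46 ± 0.31 (adjusted p = 0.00025), and Dtl fell by 1.88 ± 0.46 (adjusted p = 0.00208) from 48.8 to 12.3 CPM on average. Gins2, a subunit of the active helicase, and Uhrf1, which maintains DNA methylation behind the fork, did not pass, with log2 fold changes of −0.93 (adjusted p = 0.0952) and −1.03 (adjusted p = 0.127). The ligase gene Lig1 was testable only without the filter, where it fell by 1.64 (adjusted p = 0.013).

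**Figure D3:**
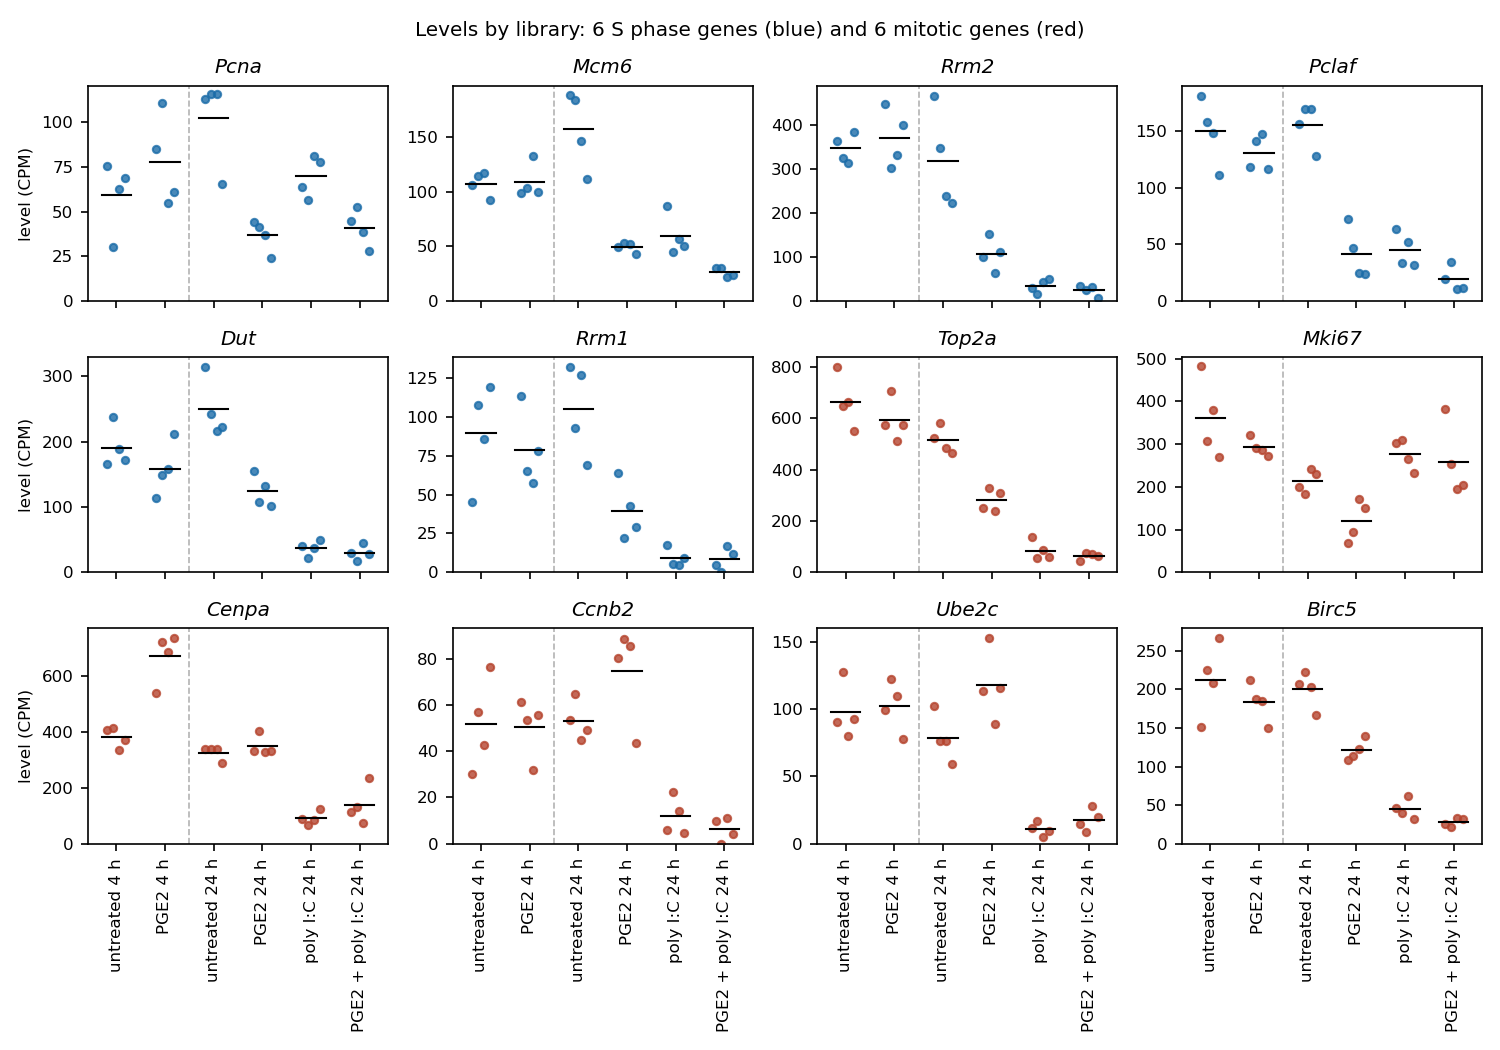
Level (CPM) in each library (points) with the group mean (line) for 6 S phase genes (blue) and 6 mitotic genes (red), in untreated and PGE2 groups at 4 h (left of the dashed line) and the 4 groups at 24 h. The PGE2 points at 24 h lie below the untreated ones for Rrm2, Mcm6, Pclaf and Top2a but not for Ccnb2, Ube2c or Cenpa.

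Within the mitotic set the genes that fell were Mki67, Top2a, Cenph, Birc5, Ccna2, Aurkb, Stmn1 and Hmgb2. Top2a stood at 524, 580, 485 and 466 CPM without and 250, 327, 239 and 309 CPM with PGE2, and fell by 0.84 ± 0.14 (adjusted p = 1.3e-06). Mki67 stood at 199, 183, 242 and 230 CPM without and 69.3, 94.4, 172 and 150 CPM with PGE2, and fell by 0.82 ± 0.19 (adjusted p = 0.000992). Birc5 (survivin, of the chromosomal passenger complex) stood at 207, 223, 203 and 167 CPM without and 108, 114, 123 and 140 CPM with PGE2, and fell by 0.71 ± 0.19 (adjusted p = 0.0072). For all 3 genes the groups did not overlap. Ccna2, cyclin A2 of S and G2 phase, stood at 148, 166, 124 and 115 CPM without and 77.6, 83.3, 85.8 and 82.1 CPM with PGE2, and fell by 0.72 ± 0.23 (adjusted p = 0.0329).

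Stmn1, which encodes the microtubule-destabilising protein stathmin, fell by 1.59 ± 0.31 (adjusted p = 5.6e-05), from 93.0 to 29.1 CPM on average. Cenph, a protein of the inner kinetochore, fell by 1.89 ± 0.50 (adjusted p = 0.00538), and the chromatin protein gene Hmgb2 and the kinase gene Aurkb fell by 0.93 ± 0.27 (adjusted p = 0.0157) and 1.17 ± 0.35 (adjusted p = 0.0164). Calls for Ccna2, Aurkb and Hmgb2 were lost under at least 1 other setting.

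The remaining 12 mitotic genes tested did not pass in either direction. Ccnb2, cyclin B2, stood at 53.7, 64.8, 45.1 and 49.2 CPM without and 80.4, 88.8, 85.8 and 43.4 CPM with PGE2 (log2 fold change 0.56 ± 0.30, adjusted p = 0.297). Ube2c, the ubiquitin-conjugating enzyme of the anaphase-promoting complex, stood at 102, 76.1, 76.1 and 59.1 CPM without and 114, 153, 88.8 and 116 CPM with PGE2 (0.61 ± 0.25, adjusted p = 0.117). In both genes 3 of 4 PGE2 libraries were above all untreated ones, and the fourth was not. The kinase gene Cdk1 and its cyclin gene Ccnb1 had log2 fold changes of 0.07 ± 0.29 (adjusted p = 0.945) and 0.06 ± 0.42 (adjusted p = 0.967), and Plk1, a kinase of mitotic entry, −0.08 ± 0.36 (adjusted p = 0.955).

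Cenpf, a kinetochore protein of G2 and M phase, stood at 59.1, 56.4, 33.8 and 65.6 CPM without and 52.7, 55.5, 88.8 and 43.4 CPM with PGE2 at 24 h (log2 fold change 0.22 ± 0.31, adjusted p = 0.792). Cenpa, higher with PGE2 at 4 h, stood at 339, 338, 341 and 289 CPM without and 333, 402, 328 and 333 CPM with PGE2 (0.13 ± 0.15, adjusted p = 0.712). Cenpe, Nusap1, Kif11, Tpx2 and Cks1b had log2 fold changes between −0.72 and −0.40 and did not pass.

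Whether the response to PGE2 differed between the times was tested directly as an interaction over the 16 untreated and PGE2 libraries of both times. It passed for 12 of 41 members, 9 S phase and 3 mitotic, all with the more negative change at 24 h, where 4.35% of 5403 genes passed. The S phase genes were Pclaf, whose change was lower by 1.69 at 24 h than at 4 h (adjusted p = 9.99e-05), Rrm2, Mcm6, Pcna, Fen1, Tyms, Dtl, Lig1 and Mcm7. The mitotic genes were Top2a, Cenpa and Nusap1. For Top2a the difference was −0.73 (adjusted p = 0.00381) and for Cenpa −0.71 (adjusted p = 0.0073), the latter from a rise at 4 h to a level near the untreated one at 24 h. The interactions of Mcm7, Dtl, Lig1 and Nusap1 were lost under at least 1 other setting. Over all members the median difference was −1.47 for the S phase genes and −0.48 for the mitotic genes, against 0.01 over all genes.

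**Figure D4:**
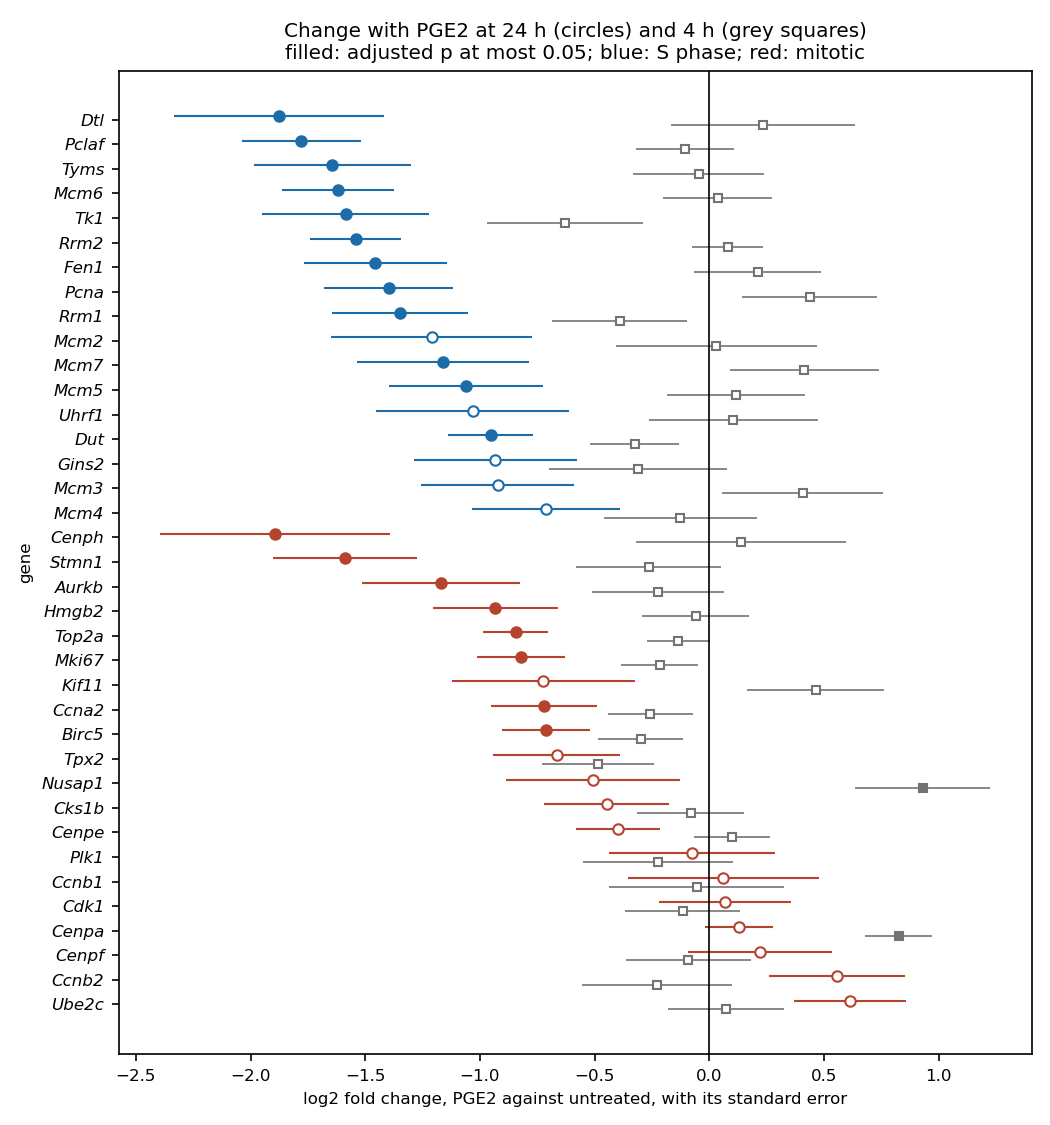
Log2 fold change with SE of PGE2 against untreated cells for each member tested at both times, at 24 h (circles, blue for S phase and red for mitotic) and at 4 h (grey squares), filled where the adjusted p was at most 0.05. The S phase circles all lie left of 0, the mitotic circles spread to both sides, and the squares cluster around 0 apart from Cenpa and Nusap1.

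In untreated cells the sets moved apart between the times. The mitotic sum was 3310 CPM at 4 h (3087 to 3514) and 2549 CPM at 24 h (2337 to 2719), the ratio of the S phase to the mitotic sum was 0.467 (0.421 to 0.505) and 0.722 (0.651 to 0.807), and neither overlapped between the times. Of 23 mitotic genes 21 had log2 fold changes below 0 (median −0.40), as had 1 of 18 S phase genes (median 0.30), against a median of 0.00394 over all genes, but 3 members passed. From 4 h to 24 h Pcna rose by 0.85 ± 0.27 (adjusted p = 0.0425), from 75.4, 30.2, 62.8 and 68.7 CPM at 4 h to the 24 h levels given above. Mki67 fell by 0.67 ± 0.16 (adjusted p = 0.00271) and Ccna2 by 0.62 ± 0.18 (adjusted p = 0.0269). These 3 of 41 members stand beside 4.33% of all genes. Mki67 passed under every setting tried, and it was the one of the 3 left without untreated library B at 4 h or C at 24 h (adjusted p up to 0.322 for Pcna). With PGE2, 23 of 41 members fell from 4 h to 24 h, 11 S phase and 12 mitotic, where 13.8% of all genes passed and 6.74% were lower. Among them were Cenpa, by 0.92 ± 0.12 (adjusted p = 4.77e-10), Mki67 by 1.29 and Top2a by 1.06. The labels give no run or date, so time and any difference in handling between the times cannot be told apart in these comparisons.

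Other genes of the cycle were counted from lists that do not hold the members. At 4 h of PGE2, where 8.57% of all genes passed, none of 39 tested replication genes did. Of 44 mitotic genes 1 passed, the tubulin gene Tubb5, which fell by 0.48. Of 20 cell cycle regulators, Cdkn1a, the inhibitor p21, rose by 1.36 ± 0.14 (adjusted p = 4.03e-16), while Myc fell by 1.57 and the cyclin D genes Ccnd3 and Ccnd1 fell by 0.87 and 0.65. At 24 h of PGE2, 13 of 27 other replication genes fell, as did 6 of 32 other mitotic genes. Of all genes 7.97% passed in either direction and 3.22% were lower. Log2 fold changes were −1.63 for Rfc4 (clamp loader) and −1.59 for Cdt1 (origin licensing), and −1.52 and −1.18 for the mitotic Spc24 (kinetochore) and Tuba1b (tubulin). Ccnd2 rose by 1.38 and Cdkn1a by 0.43 ± 0.11 (adjusted p = 0.00518), and Tfdp1, a partner of E2F, and Ccne2, cyclin E2, had −1.54 and −1.49, which passed as well. The time interaction passed for 10 of 32 other replication and 5 of 42 other mitotic genes, all more negative at 24 h. Of all genes 4.35% passed. For Cdkn1a the interaction was −0.95 (adjusted p = 6.68e-05).

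Markers of cell types moved beside these results. The summed cDC1 markers ran from 6781 to 7323 CPM in untreated cells at 24 h and from 4207 to 4393 CPM with PGE2, and 6 of 9 tested markers fell. At 4 h, where few members moved, the sum was also lower with PGE2, 4179 against 7494 CPM on average. Progenitor markers, of which 6 of 8 were in the table, summed to 187 to 245 CPM without and 119 to 189 CPM with PGE2 at 24 h, with Ctsg, Ms4a3 and Prtn3 at 0 in both groups. The main contributors of this list differed in direction, Cd34 averaging 199 CPM without and 106 CPM with PGE2 and Kit 16.7 and 51.2 CPM, and of the 2 tested 1 rose and 1 fell. Macrophage and monocyte markers, 7 of 9 in the table, summed to 1183 to 1615 CPM without and 1740 to 2070 CPM with PGE2, mostly from Lyz2. Of 4 tested, 2 rose and 1 fell, and Ccr2 averaged 47.4 CPM without and 5.51 CPM with PGE2. Markers of cDC2, the other conventional dendritic cells, summed to 68.9 to 104 CPM without and 126 to 174 CPM with PGE2, and those of plasmacytoid dendritic cells to 31.0 to 42.7 and 19.4 to 41.6 CPM. The part of these cells in the change of the S phase and mitotic genes was not tested.

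With poly I:C for the final 4 h, both sets were lower than in untreated cells at 24 h. Of 37 members tested, 31 fell, 16 of 17 S phase and 15 of 20 mitotic genes, and 1 rose. The background was large, since 65% of all genes passed and 33.7% were lower. Medians were −2.47 for the S phase and −2.02 for the mitotic genes, against −0.10 over all genes. Without the filter they were −2.39 and −2.10 over all 42, against −0.20. The untreated libraries again decided which members were tested, and of those whose counts passed without them 5 of 5 S phase and 9 of 13 mitotic genes were lower. TMM factors were 0.611 to 0.634 in the poly I:C libraries and 1.10 to 1.13 in the others at 24 h. With library totals in place of TMM scaling the median of all genes was −0.87, so changes are to be read against that shift.

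Rrm2 stood at 29.0, 16.9, 42.8 and 50.2 CPM with poly I:C, against 223 to 465 CPM in untreated cells, and fell by 3.26 ± 0.27 (adjusted p = 6.68e-21). Rrm1 stood at 17.4, 5.64, 4.75 and 9.12 CPM, on only 3, 1, 1 and 2 counts, and fell by 3.60 ± 0.45 (adjusted p = 9.35e-13). Dut stood at 40.6, 22.6, 38.0 and 50.2 CPM and fell by 2.80 ± 0.26 (adjusted p = 2.06e-20). These genes did not overlap with untreated cells. Tk1 was below the limit that a count of 0 allows at the median depth, at 5.81, 5.64, 9.51 and 0 CPM, which fell by 3.84 ± 0.55 (adjusted p = 4.01e-10). Pcna differed in size from these: it stood at 63.9, 56.4, 80.8 and 77.5 CPM, overlapped with untreated cells, and fell by 0.66 ± 0.28 (adjusted p = 0.0302), a call lost under at least 1 other setting. Mcm6 fell by 1.52 ± 0.26 and Pclaf fell by 1.89 ± 0.29, while Gins2 had a log2 fold change of −0.39 and did not pass.

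Among mitotic genes, Top2a stood at 139, 56.4, 85.6 and 59.3 CPM with poly I:C and fell by 2.72 ± 0.19 (adjusted p = 3.26e-30). Cenpa stood at 87.1, 67.7, 85.6 and 123 CPM and fell by 1.94 ± 0.20 (adjusted p = 5.36e-17), and Birc5 stood at 46.4, 39.5, 61.8 and 31.9 CPM and fell by 2.26 ± 0.26 (adjusted p = 8.6e-15). None of these genes overlapped with untreated cells. Ccna2 stood at 17.4, 39.5, 19.0 and 27.4 CPM, Ccnb2 at 5.81, 22.6, 14.3 and 4.56 CPM, and Ube2c at 11.6, 16.9, 4.75 and 9.12 CPM, with log2 fold changes of −2.52 ± 0.32, −2.27 ± 0.47 and −2.99 ± 0.44 that all passed. The levels of Ccnb2 rest on 1, 4, 3 and 1 counts and those of Ube2c on 2, 3, 1 and 2 counts. Cenpf stood at 0, 5.64, 4.75 and 0 CPM, on very few counts.

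Mki67 and Tpx2, which encodes a spindle assembly factor, had positive values on the TMM scale that did not hold by library totals. Mki67 stood at 302, 310, 266 and 233 CPM with poly I:C, with a log2 fold change against untreated cells of 0.26 (adjusted p = 0.192), and by library totals it was −0.52 (adjusted p = 0.00605). Tpx2 stood at 116, 175, 114 and 132 CPM with poly I:C and at 88.7, 73.3, 84.5 and 65.6 CPM without, a log2 fold change of 0.66 ± 0.25 (adjusted p = 0.0171) that turned to −0.12 (adjusted p = 0.675) by library totals. Gins2, Cenpe, Cdk1 and Nusap1 did not pass on the TMM scale, at −0.39, −0.06, −0.52 and −0.73, and by library totals they had −1.16 (adjusted p = 0.00222), −0.84 (adjusted p = 2.92e-05), −1.29 (adjusted p = 0.000225) and −1.50 (adjusted p = 0.000673). Outside the members, Pttg1, which encodes securin, the guard of sister chromatid cohesion, rose from 57.5 to 1213 CPM (by 4.28 ± 0.15, adjusted p = 1.99e-65). In contrast, 29 of 32 other mitotic and 24 of 27 other replication genes fell, where 33.7% of all genes were lower. The regulators Cdkn1a and Ccnd2 rose by 4.10 ± 0.10 and 5.34 ± 0.11.

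With PGE2 given before poly I:C, few members differed from poly I:C alone. Against poly I:C alone, 6 of 37 members were lower (2 S phase, 4 mitotic) and none higher, where 10.7% of all genes passed. Gins2 stood at 69.7, 39.5, 42.8 and 31.9 CPM with poly I:C and at 4.98, 4.36, 16.7 and 4.01 CPM with PGE2 and poly I:C, and fell by 2.61 ± 0.58 (adjusted p = 0.000338). The latter levels of Gins2 rest on 1, 1, 3 and 1 counts. Cenpe, the kinesin that carries chromosomes to the spindle equator, stood at 203, 254, 128 and 237 CPM and at 89.6, 105, 72.2 and 92.2 CPM, and fell by 1.17 ± 0.23 (adjusted p = 4.36e-05). In both genes the groups did not overlap, and they are the members whose calls were lost under no setting that gave a result. Cenpe passed with only the groups compared, where Gins2 could not be tested. Mcm6, Plk1 and Stmn1 passed with −1.13 ± 0.39, −2.11 ± 0.74 and −1.68 ± 0.57 (adjusted p = 0.0397, 0.0487 and 0.0405). Without poly I:C library A or C, or library A, B or D of the combination, 2 or 3 members passed. Cenph had 0 counts in all 4 libraries with PGE2 and poly I:C and 7 counts with poly I:C, at least 2.58-fold lower against 3 counts over the group (adjusted p = 0.0402).

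The interaction of PGE2 and poly I:C passed for no member by edgeR or by DESeq2, with 6 members at an unadjusted p under 0.05, where 3.28% of all genes passed. A difference between the effect of PGE2 with and without poly I:C was therefore not shown for any member. Its median was 0.62 for the S phase genes and 0.03 for the mitotic genes, against −0.04 over all genes.

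With poly I:C added to PGE2, most members were lower than with PGE2 alone. Of 37, 13 S phase and 16 mitotic genes fell and 2 mitotic genes rose, where 64.8% of all genes passed and 34% were lower. The filter bears on these counts too, since Ccnb1, Plk1 and Kif11 would not have been tested without the PGE2 libraries, in which they were high. Without the filter, 12 of 18 S phase and 17 of 24 mitotic genes were lower. The 64.8% and 34% of all genes belong to the fit with the filter. Of the members whose counts passed without the untreated libraries, 4 of 5 S phase and 10 of 13 mitotic genes were lower. Rrm2 stood at 34.8, 26.2, 33.3 and 8.01 CPM and Dut at 29.9, 17.4, 44.4 and 28.0 CPM, below all PGE2 libraries. Top2a stood at 44.8, 74.1, 72.2 and 64.1 CPM and fell by 2.26 ± 0.21, and Ccnb2, at 9.95, 0, 11.1 and 4.01 CPM on 2, 0, 2 and 1 counts, fell by 3.75 ± 0.50 (adjusted p = 2.17e-11). Ube2c fell by 2.87 ± 0.36 (adjusted p = 1.29e-12), and Cenpa, at 114, 131, 72.2 and 236 CPM, by 1.43 ± 0.18 (adjusted p = 1.57e-12).

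Cenph was at least 2.74-fold lower against 3 counts over the group, with 12 counts in the PGE2 libraries. Mki67 stood at 383, 253, 194 and 204 CPM with both, above all 4 PGE2 libraries, and rose by 0.99 ± 0.20 (adjusted p = 5.15e-06), but by library totals the log2 fold change was 0.21 (adjusted p = 0.33). Tpx2 had 0.68 ± 0.30 (adjusted p = 0.0349), which turned to −0.0895 (adjusted p = 0.789) by library totals (all-gene median −0.88). Pcna, at 44.8, 52.3, 38.9 and 28.0 CPM, had −0.04 (adjusted p = 0.929) and overlapped with PGE2 alone, while by library totals it had −0.81 (adjusted p = 0.0347). 

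Marker lists also moved with poly I:C. The cDC1 markers summed to 6990 CPM on average without and 4541 CPM with poly I:C, where 7 of 9 tested fell. They summed to 4290 CPM with PGE2 and 5059 CPM with PGE2 and poly I:C, where 4 of 9 fell and 1 rose. Irf8 made up most of the latter sums, at 2408 CPM with PGE2 and 4000 CPM with both, while Naaa averaged 479 and 129 CPM. Progenitor markers summed to 36.5 to 62.1 CPM with poly I:C and 14.9 to 44.4 CPM with both, and macrophage markers to 515 to 694 and 436 to 494 CPM, all below the libraries without poly I:C. The cDC2 markers averaged 84.4 CPM in untreated cells and 16.3 CPM with poly I:C, and 148 CPM with PGE2 and 52.2 CPM with both. The summed plasmacytoid markers were higher, at 35.6 and 92.7 CPM on average without and with poly I:C. In the presence of PGE2 they summed to 30.5 and 91.0 CPM. Most of the rise was Tcf4, at 7.21 and 68.1 CPM, and 13.8 and 68.0 CPM in the presence of PGE2. The list did not move as one. Without PGE2, Ly6d was also higher with poly I:C, but Siglech and Ccr9 were lower. With PGE2, Siglech and Ccr9 were higher and Ly6d was lower. Only 1 marker of this list was tested, and it rose in both comparisons. The part of these cells in the poly I:C results was not tested.

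**Figure D5:**
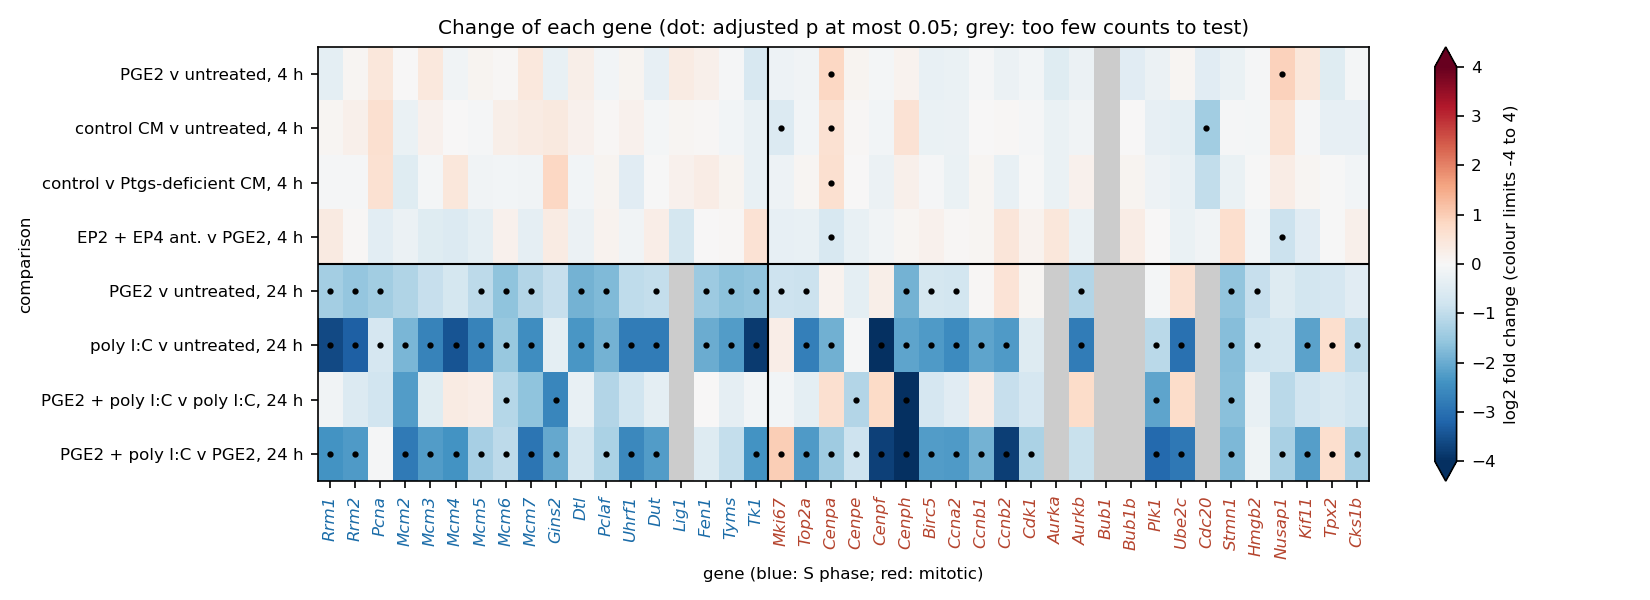
Log2 fold change (colour, limits −4 to 4) of each of the 42 members (columns, 18 S phase then 24 mitotic) in 8 comparisons (4 at 4 h above the line, 4 at 24 h below it), with a dot where the adjusted p was at most 0.05 and grey where a member had too few counts to test. Dots at 4 h fall on Cenpa, Nusap1, Mki67 and Cdc20, and at 24 h on most S phase genes with PGE2 and most genes of both sets with poly I:C.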

How the data were processed

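Polyadenylated RNA of 52 bulk samples was sequenced from its 3′ ends on a NextSeq 500, and the authors ran the Drop-seq pipeline on GRCm38 with Ensembl release 75 to obtain UMI counts for each gene, per the labels' protocols. DESeq2 1.14.1 and GRCm38.p6 also appear in the submitters' processing notes. The aligner and the strand setting were not given in the sources used here. The deposited table holds whole-number counts; of its 23136 gene lines, 1 with a text entry was left out, and 20 with a date in place of a symbol (0.105% of counts) were named in no result.

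Counts were tested in R 4.3.3 with edgeR 4.0.16 (filterByExpr by group, TMM scaling, robust quasi-likelihood fit, Benjamini-Hochberg adjustment over all genes tested, adjusted p at most 0.05). The 36 libraries at 4 h, the 16 at 24 h, and the 16 untreated and PGE2 libraries of both times were fitted separately, for 17 comparisons in all. DESeq2 1.42.0, other scalings, no filter, other sets of libraries and leaving out single libraries were the alternatives. The scripts were tested on simulated counts. Libraries of one group were compared in 78 pairs, and chi-square per degree of freedom was 1.38 to 2.70, so no library was taken for a copy of another. Same-lettered libraries did not deviate together (0 of 144 pairs at 4 h had a correlation over 0.1), so the letters were not taken to pair them.

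The members, the other gene lists and the tests were chosen with earlier results of these data known. By the naming rule, values in every library were given for the 12 members with the smallest adjusted p; other members named were singled out after their values were seen. Overlapping genes were taken from the GENCODE annotation of GRCm38 and promoters from RefSeq.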

Additional observations from a re-analysis of the deposited data

Results flagged for a closer look

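For 12 members the change with PGE2 against untreated cells differed between 24 h and 4 h by the interaction test of edgeR. The change at 24 h less that at 4 h (log2) was −2.12 for Dtl, −1.95 for Lig1, −1.85 for Pcna, −1.69 for Pclaf, −1.68 for Fen1, −1.67 for Mcm6, −1.64 for Rrm2, −1.61 for Tyms, −1.59 for Mcm7, −1.46 for Nusap1, −0.73 for Top2a and −0.71 for Cenpa. The adjusted p ran from 2.15e-05 (Rrm2) to 0.0494 (Nusap1).

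In 10 of 182 groups of 4 libraries that were checked, 1 library stood apart, with a gap to its nearest neighbour, as a share of the group's range, above Dixon's critical value (the share is given first in each bracket); chance alone gives about 1 in 20. With Ptgs1/Ptgs2-/- CM, library B was lowest for the S phase sum (0.945; 1468 against 1724 to 1739 CPM) and for Rrm2 (0.861; 309 against 434 to 454 CPM), and library C was highest for Mki67 (0.883; 356 against 234 to 248 CPM). With the EP4 antagonist, the shallow library A was lowest for Rrm1 (0.848; 0 against 96.4 to 114 CPM) and library C for Ube2c (0.88; 59.8 against 101 to 106 CPM). Library A of the EP1 antagonist was highest for Top2a (0.907; 819 against 513 to 542 CPM), and library C of the EP2 and EP4 antagonists was lowest for Mki67 (0.938; 119 against 264 to 274 CPM). Library C of PGE2 at 4 h was lowest for Ccna2 (0.86; 150 against 189 to 195 CPM). At 24 h, untreated library D was lowest for Cenpa (0.946; 289 against 338 to 341 CPM) and PGE2 library B was highest for Cenpa (0.928; 402 against 328 to 333 CPM).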

How the results depend on the processing

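Of 135 calls of members over all comparisons, 134 remained with DESeq2's size factors, 120 with the DESeq2 test, 127 with library totals, 108 without the filter and 133 with the replicate block. Leaving out single libraries of the groups compared cost the most: 100 calls remained whichever library was left out, and 35 were lost. In the comparisons at 24 h, PGE2 against untreated cells kept 15 of 20 calls under every setting. Poly I:C against untreated cells kept 28 of 32 under every setting that gave a result, 7 in place of 8 settings for Ccnb1 and Kif11. The values that turned were those of Tpx2 by library totals, −0.12 for poly I:C against untreated cells and −0.0895 for PGE2 with poly I:C against PGE2.

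Counts of members called moved as follows. PGE2 at 4 h had 1 in place of 2 with library totals and without the filter. Control CM against untreated cells had 1 in place of 3 without the filter and without the libraries under 60000 counts. The EP2 and EP4 antagonists had 1 in place of 2 without the filter. PGE2 with poly I:C against poly I:C had 2 in place of 6 without the filter and with DESeq2, and 1 with only the groups compared, where 7 members could be tested. Against PGE2 it had 14 in place of 31 with only the groups compared, where 17 could be tested. Untreated cells at 24 h against 4 h had 1 in place of 3 without the filter.

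Leaving out 1 library at a time gave 1 to 2 calls for PGE2 at 4 h, 1 to 3 for control CM, 1 to 2 for the EP2 and EP4 antagonists, 16 to 20 for PGE2 at 24 h, 31 to 34 for poly I:C, 2 to 5 for PGE2 with poly I:C against poly I:C, 29 to 32 against PGE2, 0 to 1 for the interaction of PGE2 and poly I:C, 1 to 4 for untreated cells between the times, 18 to 23 for PGE2 between the times and 10 to 13 for the interaction with time. The single call of the interaction with poly I:C appeared without PGE2 library C at 24 h. With the replicate block, untreated cells between the times had 4 calls, the interaction with time 11, PGE2 at 24 h 20 and poly I:C 32, and no other count changed. Depth limits members under 10.2 CPM, where a count of 0 in a library of median depth is not told from a low level. In the poly I:C libraries this limit lies higher on the TMM scale, as at 17.4 CPM for 3 counts in library A of poly I:C.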
